A study of Mus musculus with 16 samples.

Results

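The 9 genes described here encode enzymes that remove superoxide and peroxides, and thioredoxin, an electron donor for peroxiredoxin 1. They were taken by symbol from 24421 genes counted in single cells of intestinal crypt isolates. They are the glutathione peroxidases *Gpx1*, *Gpx2*, *Gpx3* and *Gpx4*, the superoxide dismutases *Sod1* and *Sod2*, catalase (*Cat*), peroxiredoxin 1 (*Prdx1*) and thioredoxin (*Txn1*). All 9 were found in both count matrices. The cells came from outbred mice, untreated, at postnatal day 16. The first matrix holds wild-type (WT) cells and the other ROBO-Crainbow cells, here called ROBO, from mice heterozygous for the ROBO allele and for Villin-Cre. Villin-Cre acts in the intestinal epithelium, where each recombined cell then expresses either human R-spondin 3 (RSPO3), which potentiates Wnt signalling, or a fusion of PTPRK to RSPO3, beside a fluorescent marker. The study asked how these RSPO3 proteins alter the crypt, and the comparisons below ask where along the crypt and villus each enzyme was expressed and whether its level differed between genotypes. The labels list 8 samples per genotype, but the cells could not be tied to samples, so each genotype is 1 pooled sample: no p-values are given, and every interval is a 95% interval that covers counting error only, not the variation between mice. Recombined and unrecombined cells of the ROBO matrix were not separated, and the transgene transcripts were not analysed here.

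Superoxide dismutases turn superoxide into hydrogen peroxide, *Sod1* in the cytosol and *Sod2* in mitochondria. Catalase, in peroxisomes, breaks the peroxide down to water and oxygen. Glutathione peroxidases reduce peroxides with glutathione: *Gpx1* encodes the widely expressed cytosolic enzyme, *Gpx2* the gastrointestinal enzyme, *Gpx3* a secreted enzyme and *Gpx4* the enzyme that reduces lipid peroxides in membranes. Peroxiredoxin 1 reduces peroxides with electrons from thioredoxin. In the intestine, new cells leave the crypt, where stem cells divide, move up the villus as enterocytes and are shed at its top.

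*Gpx1* to *Gpx4* are selenoproteins, so a UGA codon in each mRNA is read as selenocysteine at the active site and not as a stop. The sequence around that codon is shown because it marks the residue the 4 enzymes share, with the codon written TGA in capitals, 5′ to 3′ on the coding strand, from GENCODE M21 transcripts on GRCm38.
Gpx1: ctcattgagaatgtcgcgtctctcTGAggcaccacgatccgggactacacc
Gpx2: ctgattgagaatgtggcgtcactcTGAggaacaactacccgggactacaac
Gpx3: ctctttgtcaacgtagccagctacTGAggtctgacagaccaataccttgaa
Gpx4: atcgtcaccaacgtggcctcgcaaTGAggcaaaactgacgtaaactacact
The codon lies at chr9:108339451-108339453 (+ strand, exon 1 of 2) in *Gpx1*, chr12:76795256-76795258 (− strand, exon 1 of 2) in *Gpx2*, chr11:54907256-54907258 (+ strand, exon 2 of 5) in *Gpx3* and chr10:80054737-80054739 (+ strand, exon 3 of 7) in *Gpx4*, coding sequence in each. The other 5 genes lie on the same build at chr16:90220754-90226329 (*Sod1*), chr17:13006846-13040063 (*Sod2*), chr2:103453849-103485160 (*Cat*), chr4:116685544-116700822 (*Prdx1*) and chr4:57943373-57956411 (*Txn1*). *Gpx1* and *Gpx2* were alike at 43 of 51 bases (84.3%), while every other pair was alike at 24 to 29 of 51. The closest pair in sequence was not the pair found at opposite ends of the crypt to villus ranking below, *Gpx2* and *Gpx3*.

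The WT matrix held 1348 cells with 2682127 unique molecular identifiers (UMIs, each standing for 1 captured transcript) and a median of 1492 UMIs per cell, and the ROBO matrix 1249 cells with 2428435 UMIs and a median of 1610. Clustering without the 9 genes and without the other genes of their pathways gave 12 clusters in 8 classes, named from fixed markers: stem-like (925 cells), transiently amplifying-like (237), bottom (475), middle (533) and top (228) enterocyte-like, goblet-like (126), enteroendocrine-like (29) and immune-like (44). Although the tissue was labelled as crypt cells, enterocyte-like cells of the villus were thus present in number. A stem-like cluster of 315 cells and the transiently amplifying-like cluster were led by the ribosomal RNA transcript *Rn45s*. In that stem-like cluster 5 of 18 stem markers were raised, with a mean log2 fold of 0.03 over the markers, and without the *Rn45s*-led clusters the top over stem log2 ratio was 8.38 for *Gpx3* and −3.50 for *Gpx2*. The transiently amplifying-like cluster was named on 11 of 25 markers, with a mean log2 fold of 0.706. It held top enterocyte marker UMIs at 81.2 per 10000 in WT and 84.8 in ROBO, against 25.65 and 28.3 in stem-like cells. Of its cells, 59, 52, 46, 65 and 15 lay in bins 1 to 5 of the crypt to villus ranking below. That class is therefore not placed in the crypt here. A middle enterocyte-like cluster of 118 cells was led by the immediate-early and stress genes *Cxcl10*, *Fosb* and *Atf3*. No cluster was named for Paneth, tuft or fibroblast markers here, and the stem-like class held fibroblast marker UMIs at 3.2 per 10000 in WT and 8.8 in ROBO. Some alternatives, such as resolution 1.2 and 1000 variable genes, instead set 4 WT and 4 ROBO cells apart as a fibroblast-like cluster. In it 12 of 13 fibroblast markers were raised. The goblet-like cluster had the Paneth marker *Defa24* among its leading genes. It also held tuft marker UMIs at 5.1 per 10000 in WT and 6.7 in ROBO, so goblet-like values are not those of goblet cells alone. Levels below are UMIs per 10000 UMIs of the class, summed over its cells.

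Among the 9 genes, *Gpx3* had the highest and *Gpx2* the lowest ratio of top enterocyte-like over stem-like cells. Top enterocyte-like cells held *Gpx3*, the secreted enzyme, at 87.8 (82.8 to 92.9) in WT, and ROBO cells of that class held it at 89.6 (85.3 to 94.01). The stem-like level was 0.191 (0.113 to 0.302) for WT and 0.295 (0.193 to 0.433) for ROBO. Over both genotypes this is a log2 ratio of 8.52 (8.09 to 8.99), the 10th highest of 9200 genes with at least 20 UMIs in the 2 classes. Its base is 44 stem-like UMIs, and other ways of processing gave 8.24 to 9.89, so its exact size is uncertain. The genes that lead this cluster beside it were *Mfi2*, *Ada* and *Ctsl*, though *Gpx3* itself took no part in the clustering. Among its 228 cells, 222 had at least 1 *Gpx3* UMI, up to 62 in a WT cell and 76 in a ROBO cell.

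Middle enterocyte-like cells stood between, with *Gpx3* at 3.04 (2.59 to 3.55) in WT and 2.91 (2.46 to 3.41) in ROBO. Enteroendocrine-like cells followed at 2.01 over both genotypes, on 9 UMIs in 3 cells, then transiently amplifying-like (0.502), goblet-like (0.404), stem-like (0.242) and bottom enterocyte-like cells (0.148). Among the last 4 the intervals of neighbours in that order overlapped. Immune-like cells had 0 *Gpx3* UMIs. After each cell was thinned to 912 UMIs, which left out 364 WT and 285 ROBO cells of lower depth, 98.1% of top enterocyte-like cells (152 of 155) and 11.9% of middle enterocyte-like cells (50 of 421) had a *Gpx3* UMI, against 1.53% of stem-like and 0.893% of bottom enterocyte-like cells. In immune-like cells, which serve to read free RNA, 0 of 35 did, which allows a share of up to 8.57%. The shares in stem-like and bottom enterocyte-like cells therefore cannot be told from free RNA at this depth, while those in top enterocyte-like cells lie far above it. Without thinning they were 97.4%, 18.6%, 2.70% and 1.68%, at median depths of 1213, 1589, 1526 and 2443 UMIs, and 0 of 44 immune-like cells at 1749.5.

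*Gpx2*, the gastrointestinal enzyme, ran the other way. Its level was highest in bottom enterocyte-like cells, at 5.29 in WT and 5.28 in ROBO, and in goblet-like cells, at 4.78 and 5.41, with stem-like cells at 4.55 (4.13 to 5.00) and 3.85 (3.45 to 4.28), enteroendocrine-like cells at 3.96 and 4.08 (10 and 8 UMIs) and transiently amplifying-like cells at 3.69 and 3.26. It was 1.09 and 0.698 in middle and 0.372 (5 UMIs) and 0.383 (7 UMIs) in top enterocyte-like cells. The log2 ratio of top enterocyte-like over stem-like cells was −3.48 (−4.44 to −2.66), an 11.1-fold lower level that rests on 12 UMIs in top enterocyte-like cells. That ratio was the 777th lowest of the 9200 genes tested, so many genes had a lower one. It became −5.37 without the 5 cells with most *Gpx2* UMIs in each of these classes. In thinned cells 33.9% of bottom enterocyte-like, 31.9% of goblet-like and 163 of 652 stem-like cells had a *Gpx2* UMI, whereas the share was 5.70% in middle and 2.58% in top enterocyte-like cells. Immune-like cells, which should lack the gene, showed 5.71%, but on only 2 of 35 cells. The shares in middle and top enterocyte-like cells therefore cannot be told from free RNA on these counts. Without thinning the shares were 59.2%, 42.9%, 37.7%, 11.6%, 3.51% and, in immune-like cells, 4.55%.

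**Figure D1:**
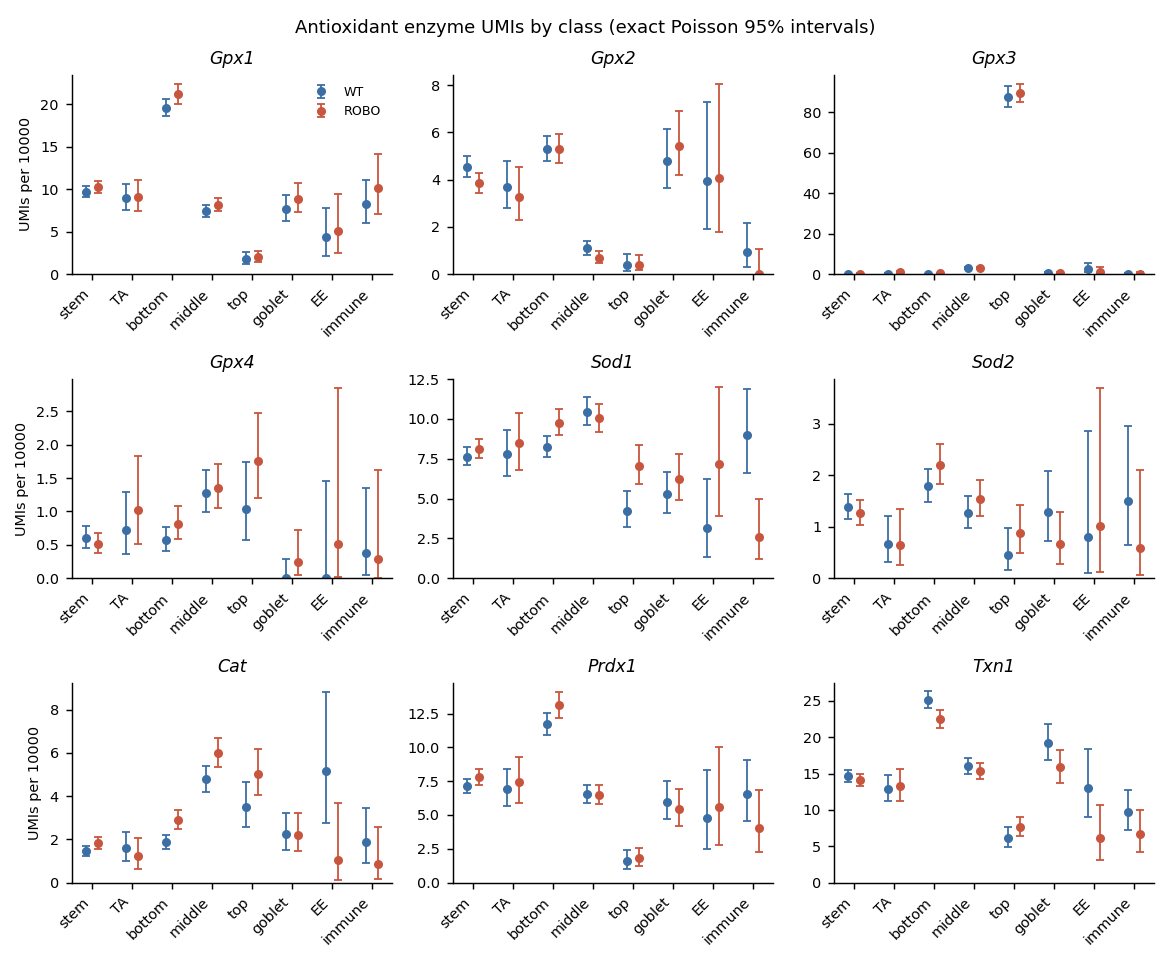
Level of each of the 9 genes (UMIs per 10000 UMIs, linear axis from 0, scales differ between panels) in 8 classes of cells for WT (blue) and ROBO (red); points are sums over the cells of a class and bars are exact Poisson 95% intervals. TA is transiently amplifying-like and EE enteroendocrine-like. *Gpx3* stands at 87.8 and 89.6 in top enterocyte-like cells and near 0 elsewhere, while *Gpx1*, *Prdx1* and *Txn1* peak in bottom enterocyte-like cells.

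*Gpx1* and *Prdx1* shared a pattern with a peak in bottom enterocyte-like cells. That class was named on 7 of 12 markers. Of its cells, 68, 99, 171, 127 and 10 lay in bins 1 to 5 of the crypt to villus ranking below. At resolution 0.5 the cluster led by *Gsdmc4*, which also led this class, was named transiently amplifying-like. The class is therefore not placed at the villus base here. *Gpx1*, the widely expressed peroxidase, was at 9.94 in stem-like cells, 20.3 in bottom enterocyte-like cells, 7.78 in middle and 1.89 in top enterocyte-like cells. *Prdx1* was at 7.44, 12.4, 6.52 and 1.70 in the same classes. *Txn1*, its electron donor, was at 14.4, 23.97, 15.7 and 7.03, with goblet-like cells at 17.6. For all 3 genes the bottom enterocyte-like level exceeded the stem-like level in each genotype by more than the counting intervals: the log2 ratios over both genotypes were 1.03 (0.94 to 1.11) for *Gpx1*, 0.73 (0.63 to 0.84) for *Prdx1* and 0.74 (0.66 to 0.81) for *Txn1*.

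Catalase and *Gpx4* were higher up the villus. *Cat* was at 1.62 in stem-like, 2.30 in bottom, 5.36 in middle and 4.38 in top enterocyte-like cells. Its log2 ratio of top enterocyte-like over stem-like cells was 1.44 (1.13 to 1.73), 1.27 in WT and 1.48 in ROBO. *Gpx4*, the lipid peroxidase, had 402 UMIs in all and was at 0.560 in stem-like, 1.32 in middle and 1.45 in top enterocyte-like cells, a top over stem log2 ratio of 1.37 (0.84 to 1.89) that was 0.78 (−0.18 to 1.64) in WT by itself and 1.77 (1.07 to 2.46) in ROBO. Goblet-like cells had 0 *Gpx4* UMIs in WT and 3 in ROBO.

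The superoxide dismutases had the smallest differences between top enterocyte-like and stem-like cells among the 9 genes with both genotypes together, but not in WT, where *Sod2* was at −1.63 and *Sod1* at −0.85. *Sod1* was between 7.87 and 10.3 in stem-like, transiently amplifying-like, bottom and middle enterocyte-like cells and at 5.86 in top enterocyte-like cells. *Sod2* was at 1.32 in stem-like, 1.96 in bottom, 1.39 in middle and 0.693 in top enterocyte-like cells. The top over stem log2 ratio of *Sod1* was −0.43 (−0.65 to −0.20) on this scale but 0.12 after scaling by the median of ratios over genes, which moved the median of 8657 genes from −0.71 to −0.16, so no direction is given for it.

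In all, 7 of the 9 genes were at least 2-fold different between top enterocyte-like and stem-like cells, 3 higher (*Gpx3*, *Cat* and *Gpx4*) and 4 lower (*Gpx2*, *Gpx1*, *Prdx1* and *Txn1*). *Txn1* was at −0.48, short of 2-fold, with median of ratios scaling. Among all 9200 genes tested 56.7% were past 2-fold, 11.6% higher and 45.1% lower, with a median log2 ratio of −0.80, so the number of genes past 2-fold is near the background, and the median of the 9 genes was −0.93. *Txn1*, at −1.03, and *Sod2*, at −0.93, lay close to the median of all genes. In WT cells by themselves 2 were higher and 5 lower, *Gpx4* falling short of 2-fold and *Sod2* passing it at −1.63, where 11.8% and 47.1% of all genes were. In ROBO cells 3 were higher and 3 lower, *Txn1* falling short at −0.88, where 11.9% and 43.8% of all genes were.

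**Figure D2:**
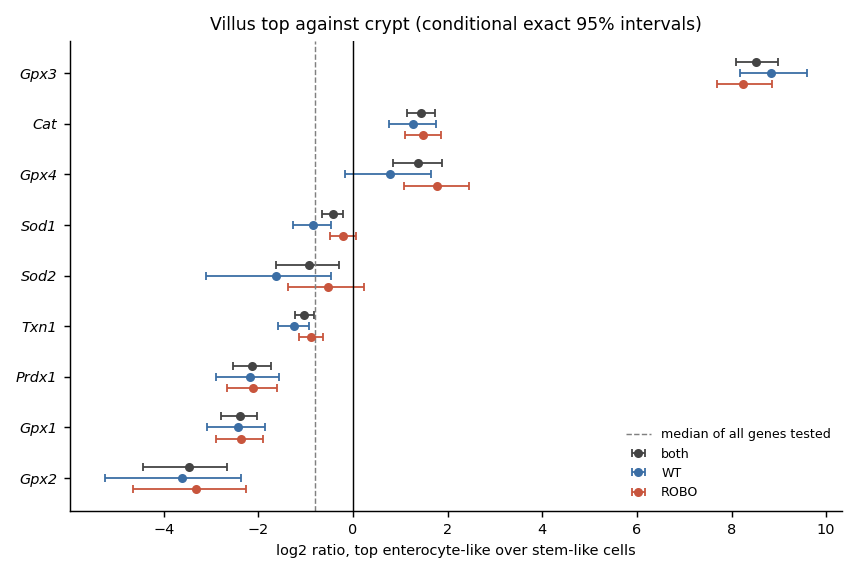
Log2 ratio of the level in top enterocyte-like over stem-like cells for the 9 genes, over both genotypes (grey), in WT (blue) and in ROBO (red), with conditional exact 95% intervals; the dashed line is the median of all genes tested, −0.80. The ratios run from −3.48 for *Gpx2* to 8.52 for *Gpx3*, and those of WT and ROBO overlap for every gene.

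The mix of the 4 glutathione peroxidases changed with position. *Gpx1* made up 66.5% (64.7 to 68.3) and *Gpx2* 28.2% (26.5 to 29.9) of their summed 2724 UMIs in stem-like cells, with *Gpx3* at 1.62%. In middle enterocyte-like cells *Gpx1* was 60.0%, *Gpx3* 23.0%, *Gpx4* 10.2% and *Gpx2* 6.92% of 1359 UMIs. In top enterocyte-like cells *Gpx3* was 96.0% (95.2 to 96.7) of 2936 UMIs, at 96.5% in WT and 95.6% in ROBO. Counts at the 3′ end do not grow with transcript length, though genes can differ in capture, so these shares compare the classes and not the abundance of the 4 proteins.

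**Figure D3:**
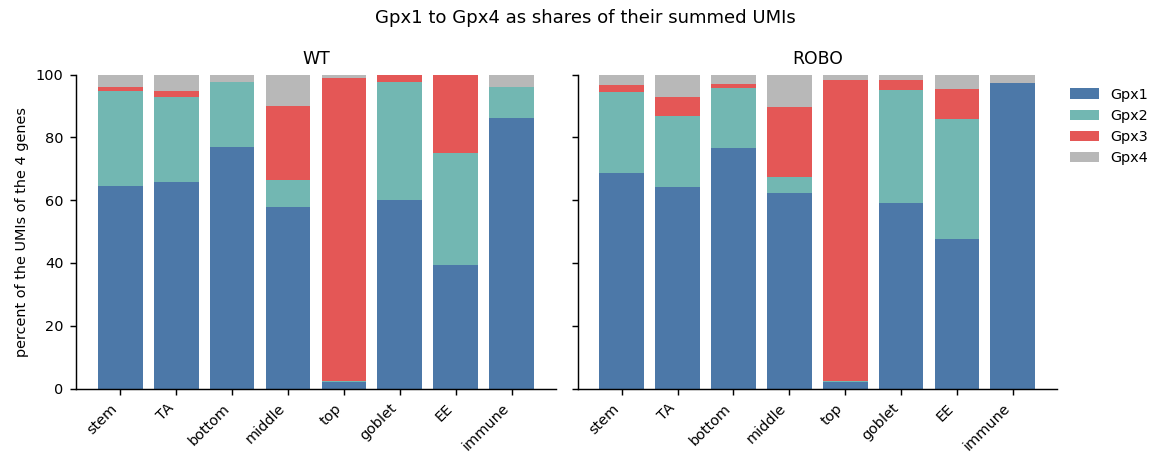
Share of the summed UMIs of *Gpx1*, *Gpx2*, *Gpx3* and *Gpx4* (percent, stacked to 100) that each gene takes in 8 classes, WT on the left and ROBO on the right. *Gpx1* and *Gpx2* take most in stem-like, bottom enterocyte-like and goblet-like cells, and *Gpx3* takes 96.5% and 95.6% in top enterocyte-like cells; the enteroendocrine-like bar rests on 49 UMIs over both genotypes and the immune-like bar on 87.

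Counts in single cells followed the classes. Of 1913 epithelial-like cells thinned to 912 UMIs, 404 had a UMI of *Gpx2* without *Gpx3*, 214 of *Gpx3* without *Gpx2* and 11 of both. Within a class the genes were not shown to exclude each other: in middle enterocyte-like cells the numbers were 22, 48 and 2 of 421, with a *Gpx2* share that could not be told from free RNA. In top enterocyte-like cells all 4 cells with a *Gpx2* UMI also had 1 or more of *Gpx3*. At this depth most cells lack a UMI of either gene, so a missing UMI does not show that a cell lacked the transcript.

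A ranking of epithelial-like cells that used no clusters put *Gpx2* and *Gpx3* at opposite ends, though not every gene kept its order of classes. Cells were ranked by the UMIs of 27 villus genes over those of 26 crypt genes, none of them among the 9, and divided into 5 bins of 510 or 511 cells. Many of these genes were also class markers, so the ranking is not independent of the classes. From the crypt bin to the villus bin *Gpx3* went through 0.0505, 0.0821, 0.313, 2.74 and 30.6. *Gpx2* was lower in each later bin, at 6.07, 5.27, 3.52, 1.72 and 0.535. *Cat* was at 1.64, 1.37, 1.68, 4.05 and 5.52, and *Gpx4* went from 0.522 to 1.35. *Gpx2* was thus highest in the crypt bin, not where bottom enterocyte-like cells were most frequent, and *Cat* and *Sod1* were highest in the villus bin although middle exceeded top enterocyte-like cells by class. The villus bin held 208 top and 276 middle enterocyte-like cells. *Gpx1* was at 9.50, 11.0, 16.1, 16.0 and 5.09, and *Prdx1* and *Txn1* likewise had their lowest levels, 4.97 and 13.5, in the villus bin. *Sod1* (7.78 to 9.28) and *Sod2* (1.28 to 1.64) stayed within narrow ranges.

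**Figure D4:**
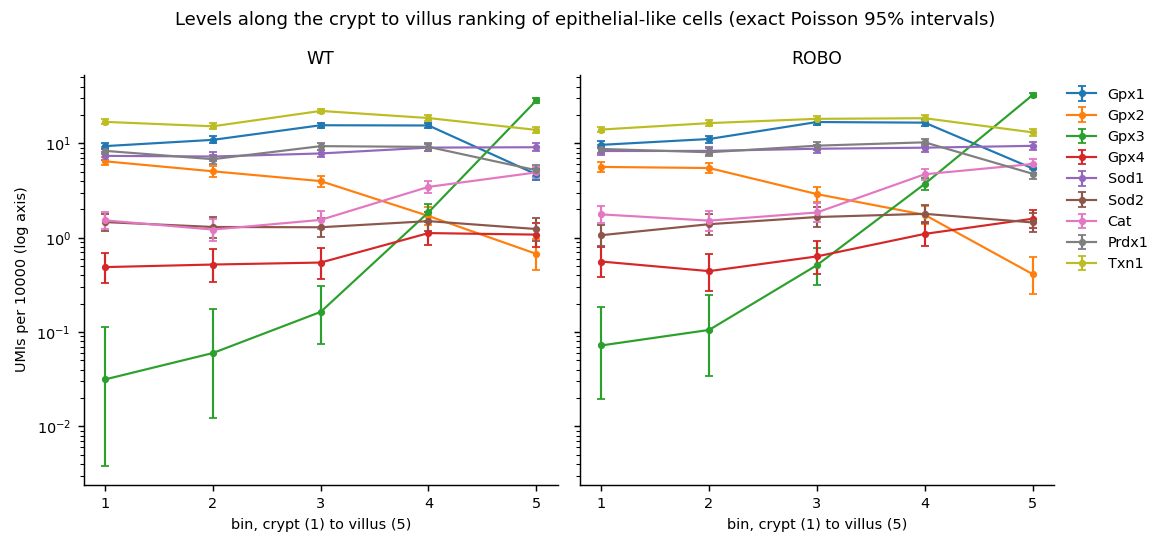
Levels of the 9 genes (UMIs per 10000, log axis) in 5 bins of epithelial-like cells ranked from crypt (1) to villus (5), WT on the left and ROBO on the right, with exact Poisson 95% intervals. In both genotypes the *Gpx2* line descends and the *Gpx3* line climbs, from 0.0315 to 28.5 in WT and from 0.0722 to 32.5 in ROBO.

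Middle enterocyte-like cells were not uniform. A cluster of 278 cells was led by *Cubn* and *Lct*, genes of the suckling enterocyte, and another of 137 cells by *Sis*, which encodes the sucrase that appears at weaning, and *Aldh1a1*. *Gpx3* was at 4.72 in the *Lct* cluster and 0.220 in the *Sis* cluster, a log2 ratio of *Sis* over *Lct* cluster of −4.43 (−5.75 to −3.36). *Gpx1* was at 3.90 in the *Lct* cluster and 13.5 in the *Sis* cluster (1.79, 1.55 to 2.03). *Prdx1* was at 4.15 and 11.6 (1.48) and *Sod2* at 1.10 and 2.23 (1.02). *Gpx2* was at 0.570 and 1.22, the first of which is close to the immune-like level of 0.569. That level itself rests on 5 UMIs, so the *Gpx2* fold is not read as a difference in expression. The other 4 genes were also higher in the *Sis* cluster, by log2 ratios of 0.49 (*Cat*) to 0.68 (*Gpx4* and *Txn1*). Thus 4 of 9 genes, *Gpx2* included, were at least 2-fold higher and 1 lower, where 7.59% of 6047 genes were higher and 10.6% lower, and *Gpx3* was the only 1 of the 9 below its level in the *Lct* cluster. In each genotype the ratio of *Gpx3* had the same sign (−3.57, −5.04 to −2.40, in WT and −6.31, −11.6 to −3.81, in ROBO, where the *Sis* cluster held 1 UMI).

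Genes whose class profile was most like each of the 9 were found by Pearson correlation of log2 levels over 12 points, 6 classes in each genotype, among 7458 genes. Points of a genotype share their libraries, so these values describe likeness only. *Gpx1* and *Prdx1* were each other's nearest gene among those tested (r = 0.99). *Gpx3* was close to *Mfi2* and *Tdrp* (0.99 each), *Gpx2* to *Ccnd2* (0.99), *Magoh* and *Nasp*, and *Gpx4* to *Stx7* (0.97). *Sod1* (nearest *Marc2*, 0.94), *Sod2* (*Gfm2*, 0.93), *Cat* (*2010106E10Rik*, 0.95) and *Txn1* (*Lypd8*, 0.96) had looser neighbours. Between the 9 genes, *Gpx3* ran against *Gpx1* (−0.91), *Gpx2* (−0.91) and *Prdx1* (−0.91).

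The other genes of these pathways were taken from a list of 94 symbols, some of them alternative names, of which 84 were found. Of 63 with at least 20 UMIs in the 2 classes, 15 were at least 2-fold higher in top enterocyte-like than in stem-like cells and 25 lower, with a median log2 ratio of −0.39 beside −0.80 for all genes, of which 11.6% were higher and 45.1% lower. The count of lower genes lies near that share. Among those with at least 100 UMIs, the highest were *Ggt1*, which starts the breakdown of glutathione outside the cell (5.56), and *Sepp1*, the plasma selenium carrier (5.03, from 1.19 to 38.9 UMIs per 10000), followed by *Xdh*, xanthine dehydrogenase (3.20), and *Dio1*, a selenoprotein deiodinase (2.90). The lowest with a ratio were *Gsr*, glutathione reductase (−3.42), *Prdx4*, a peroxiredoxin of the endoplasmic reticulum (−2.75), and *Park7* (−2.50). *Nqo1*, a quinone reductase, was counted as lower on 25 UMIs in stem-like and 0 in top enterocyte-like cells, but a count of 0 allows 3, with which it would not pass 2-fold. The examples that follow were chosen after their values were seen. Of 13 genes of glutathione synthesis and recycling 2 were higher (*Gclm*, 1.62, and *Ggt1*) and 7 lower. Of 13 other genes of the peroxiredoxin and thioredoxin system 2 were higher (*Prdx5*, 2.83, and *Srxn1*, 2.25, which restores oxidised peroxiredoxins) and 8 lower, *Txnrd1* (−1.48) and *Txn2* (−2.13) among them. Of 15 other selenoproteins and factors of selenocysteine incorporation 5 were higher, *Sepp1* and *Dio1* among them, and 6 lower.

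Between genotypes, none of the 9 genes was 1.5-fold different over all cells, where 9.46% of 10634 genes with at least 20 UMIs were. The largest ratio was that of *Gpx3*, whose level of 5.13 in WT stood against 7.62 in ROBO (log2 ratio 0.57, 0.47 to 0.67). *Cat* was at 2.40 and 3.16 (0.39, 0.24 to 0.55). *Sod1* was at 8.07 and 8.67 (0.10, 0.02 to 0.19). *Txn1* was at 17.3 and 15.7 (−0.14, −0.20 to −0.08) and *Gpx2* at 3.74 and 3.25 (−0.20, −0.34 to −0.06). For these 5 genes the interval left out 0, 3 above and 2 below, beside 7.01% and 7.50% of all genes. The shares over all genes include genes with as few as 20 UMIs, whose intervals are wider, so they are not matched for depth. *Gpx4* (0.26, −0.03 to 0.55), *Sod2* (0.07), *Prdx1* (0.04) and *Gpx1* (0.04) had intervals that included 0. When each cell was thinned to 912 UMIs, the ratios of *Gpx2* and *Sod1* became 0.015 and −0.0027, and that of *Gpx4* became 0.66, so no direction is given for *Gpx2* and *Sod1*. This step also left out the shallower cells, and the part of each change was not tested.

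The higher *Gpx3* level over all ROBO cells stood beside more top enterocyte-like cells, 127 of 1249 in ROBO and 101 of 1348 in WT. Within that class the log2 ratio was 0.03 (−0.08 to 0.14), and in middle enterocyte-like cells −0.07 (−0.40 to 0.26). With the share of UMIs of each class held the same in both genotypes it was 0.05, and without the top enterocyte-like cells 0.30. Bottom enterocyte-like cells held 0 *Gpx3* UMIs in 256 WT cells, a count that limits cells with a UMI to 1.17%, and 19 UMIs in 8 of 219 ROBO cells, 12 of them in 1 cell. The shares of cells in these dissociated crypts depend on how much villus each isolate carried, which cannot be told apart from genotype. From these single cells the study reported no significant change in the share of each cell type between genotypes. In tissue sections it described markedly fewer differentiated *Alpi*-positive enterocytes in ROBO intestine.

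*Cat* was higher in ROBO cells within more than 1 class. It was at 1.85 in WT and 2.88 in ROBO in bottom enterocyte-like cells (0.64, 0.30 to 0.98), 4.77 and 5.97 in middle (0.32, 0.08 to 0.57) and 3.50 and 5.03 in top enterocyte-like cells (0.53, 0.00 to 1.06). In stem-like cells the values were 1.45 and 1.81 (0.32, −0.02 to 0.66) and in goblet-like cells 2.23 and 2.21. The other classes went the opposite way, at 1.58 and 1.21 in transiently amplifying-like cells (−0.39, −1.48 to 0.64), 5.15 and 1.02 in enteroendocrine-like cells (−2.33, −5.52 to −0.19, on 13 and 2 UMIs) and 1.87 and 0.872 in immune-like cells (−1.10, −3.60 to 0.86). Over all cells, 10 other ways of processing gave *Cat* a ratio of 0.34 to 0.41.

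The *Gpx2* ratio was −0.24 (−0.45 to −0.03) in stem-like cells and close to level in bottom enterocyte-like cells (0.00, −0.23 to 0.22). In middle enterocyte-like cells the values were 58 UMIs in WT and 36 in ROBO (−0.64, −1.29 to −0.02), but the share of these cells with *Gpx2* could not be told from free RNA. The immune-like level was 0.934 in WT, on 5 UMIs, and 0 in ROBO, so no difference in expression is read from the middle enterocyte-like counts. The share of thinned stem-like cells with a *Gpx2* UMI was 24.4% in WT and 25.6% in ROBO, which does not follow the direction of the level. The stem-like class also held the fibroblast marker UMIs named above, more in ROBO, and their part in its ratios was not tested. *Sod1* was higher in ROBO bottom enterocyte-like cells (8.25 and 9.77, 0.24) and top enterocyte-like cells (4.24 and 7.05, 0.73, 0.27 to 1.21). *Gpx1* (0.11) and *Prdx1* (0.16) were higher and *Txn1* (−0.16) lower in ROBO bottom enterocyte-like cells with intervals of 0.00 to 0.23, 0.02 to 0.31 and −0.26 to −0.06. None of the genotype ratios within classes was recomputed with thinned cells, which took the *Sod1* ratio over all cells to −0.0027. Whether the directions within classes, those of *Cat* included, hold with thinning was not tested.

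**Figure D5:**
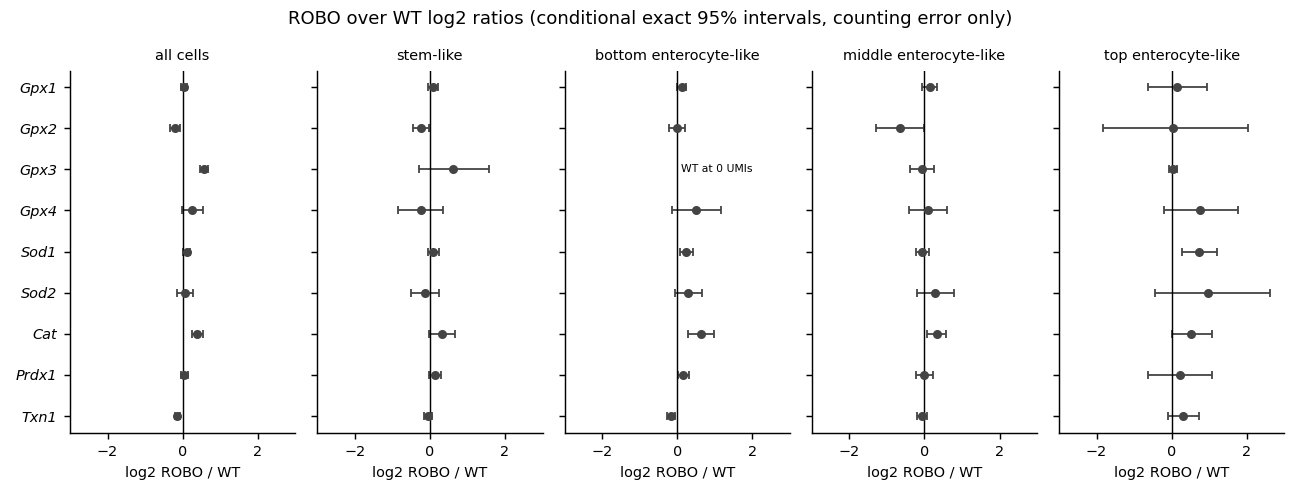
Log2 ratio of ROBO over WT for the 9 genes over all cells and in 4 classes, with conditional exact 95% intervals; *Gpx3* has no ratio in bottom enterocyte-like cells, where WT had 0 UMIs. The *Gpx3* point lies at 0.57 over all cells and at 0.03 in top enterocyte-like cells. *Cat* lies to the right of 0 in every panel drawn, with an interval that includes 0 in stem-like cells. In the classes not drawn its ratio ran from −0.01 (goblet-like) to −2.33 (enteroendocrine-like).

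Counted by class, the genes at least 1.5-fold different between genotypes were 1 of 9 in stem-like cells (*Gpx3*, higher, on 18 and 26 UMIs, where 13.4% of genes were past 1.5-fold), 0 of 7 in transiently amplifying-like (28.2%), 1 of 8 in bottom enterocyte-like (*Cat*, 21.3%), 1 of 9 in middle (*Gpx2*, lower, 17.7%) and 3 of 8 in top enterocyte-like cells (*Gpx4*, *Sod1* and *Sod2*, higher, 25.7%). In goblet-like cells it was 1 of 7 (*Sod2*, lower, 30.5%), in enteroendocrine-like cells 2 of 4 (*Sod1* higher and *Txn1* lower, 37.5%) and in immune-like cells 2 of 4 (*Sod1* and *Prdx1*, lower, 38.3%). These shares are of the order of the background in each class. By intervals that left out 0, 4 of 8 genes were above and 1 below in bottom enterocyte-like cells (7.56% and 7.06% of all genes), 1 above and 1 below in middle (3.7% and 4.27%), 2 above in top enterocyte-like (5.24%) and 1 below in stem-like cells (3.84%). These shares of all genes are likewise not matched for depth. Of the 67 pathway genes tested over all cells, 1 passed 1.5-fold, where 9.46% of all genes did: *Hao2*, a peroxisomal oxidase, with 0.93 (0.18 to 1.70) on 68 UMIs, which a minimum of 100 UMIs leaves out.

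The antioxidant response element core, TGACNNNGC on either strand, occurred in 12.4% of 32851 mouse promoter windows of RefSeq (GRCm38.p6, from 250 bases before to 50 after the start site). Among the 12 windows of the 9 genes, 4 of them of *Gpx4*, it was found in those of *Prdx1* (GCTGAGTCA, starting 133 bases before the start site) and *Sod1* (GCGTGGTCA, 56 bases before it). The TCF/LEF core CTTTGAT (3.73% of windows) and the HNF4 core CAAAGTCCA (0.475%) were in none of them. A match describes the letters of the window and is not evidence of binding.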

How the data were processed

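Single cells of crypt isolates were captured on ddSEQ cartridges and their 3′ transcript ends sequenced. The authors produced the deposited count matrices, 1 per genotype, of raw UMI counts in BaseSpace, and the submitters' notes name mm10 and GRCm38. The aligner and the gene annotation are not given in the sources used here. The study pooled samples in each matrix, which leaves no way to trace a cell to any of the 8 samples per genotype, nor to compute a spread between replicates. All 2597 cells were kept (463 to 13756 UMIs per cell), and Scrublet (scanpy 1.11.5) called 2 WT and 4 ROBO doublets, too few to show that it worked, which were kept. Seurat 5.3.0 in R 4.3.3 clustered cells on 2000 variable genes without the 9 genes and 84 pathway genes, with 20 principal components, resolution 0.8 and cell-cycle scores regressed. Clusters were named from fixed markers, raised at least 1.5-fold. UMIs were summed per class and genotype and divided by total UMIs. Ratios carry conditional exact intervals and shares exact Clopper-Pearson intervals (scipy 1.17.1), for counting error only. Genes under 20 UMIs in a comparison were not counted as past a fold. Named pathway genes were the 4 highest and 4 lowest with at least 100 UMIs and those past 1.5-fold between genotypes, and the 3 genes most like each of the 9 were found with 0.5 added before log2. Of those 3, some are not reported here. The 9 genes and the lists were chosen with earlier results of these data known. The interval and fold scripts were tested on simulated sums of independent Poisson counts. That is the model behind the intervals, so clumping of UMIs in few cells was not covered. Alternatives are given in the closing section.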

Additional observations from a re-analysis of the deposited data

Results flagged for a closer look

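*Sod1* and *Cat* had ROBO over WT ratios of opposite sign in different classes, each with a counting interval that left out 0. For *Sod1* the log2 ratio was 0.24 in bottom enterocyte-like and 0.73 in top enterocyte-like cells but −1.78 (−2.99 to −0.73) in immune-like cells, where 48 UMIs in 25 WT cells stood against 9 in 19 ROBO cells. For *Cat* it was 0.64 in bottom, 0.32 in middle and 0.53 in top enterocyte-like cells but −2.33 (−5.52 to −0.19) in enteroendocrine-like cells, on 13 UMIs in 15 WT cells and 2 in 14 ROBO cells. Each genotype is 1 pooled sample, and the difference was not tested for either gene.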

How the results depend on the processing

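The number of the 9 genes past 2-fold between top enterocyte-like and stem-like cells was 6 to 8 in 18 alternatives. The *Gpx3* ratio, 8.52, was 9.11 with the left-out genes kept in clustering, 9.74 at resolution 0.5, 9.63 with 1000 variable genes, 9.23 and 9.70 with 10 and 30 principal components, 9.55 without cell-cycle regression, 9.89 with doublet calls removed and 9.07 with median of ratios scaling. It was 9.45 without the 5 cells with most UMIs of the gene in each of the compared classes. That step took the *Gpx2* ratio, which stood on 12 UMIs in top enterocyte-like and 767 in stem-like cells, to −5.37. Why the *Gpx3* ratio was higher in these alternatives was not tested. The *Sod1* ratio turned to 0.12 with median of ratios scaling. With cells thinned to 912 UMIs the ROBO over WT ratios of *Gpx2* and *Sod1* turned to 0.015 and −0.0027, and 1 of the 9 genes, *Gpx4*, passed 1.5-fold, as 1, *Gpx3*, did without its 5 highest cells. The count of pathway genes past 1.5-fold, 1 as reported, was 3 with cells weighted equally, 4 when thinned, 11 with no minimum of UMIs (fewer counts per gene), 0 with a minimum of 100 and 3 without the *Rn45s*-led clusters. That last alternative, leaving out top enterocyte-like cells and holding class shares the same were chosen after seeing the data. No paired analysis was possible because the cells could not be assigned to samples, and for the same reason no replicate could be left out. Class sizes of 29 and 44 cells limit what enteroendocrine-like and immune-like cells can show.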

Other observations

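The matrices also count *Gpx2-ps1*, a processed pseudogene of *Gpx2*, which was chosen after its values were seen. It had 232 UMIs and lay where *Gpx2* did, at 0.472 UMIs per 10000 in stem-like, 0.856 in bottom enterocyte-like and 0.687 in goblet-like cells against 0.0668 in middle and 0.0630 in top enterocyte-like cells. Its level was 0.615 in WT (165 UMIs) and 0.276 in ROBO (67 UMIs). The log2 ratio was −1.16 (−1.59 to −0.74) over all cells, −1.27 in stem-like and −1.14 in bottom enterocyte-like cells. Summed with *Gpx2*, the ROBO over WT ratio was −0.30 (−0.43 to −0.17) over all cells and −0.34 (−0.54 to −0.14) in stem-like cells. How reads were divided between the gene and its copy was not tested.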
